A study of Rattus norvegicus with 22 samples.

Results

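The nuclear genes of the mitochondrial respiratory chain and of ATP synthase were followed in the lungs of rats with acute pulmonary embolism (PE). A gene was taken where its annotated symbol began with Ndufa, Ndufb, Ndufc, Ndufs or Ndufv, with Sdha, Sdhb, Sdhc or Sdhd, with Uqcr, with Cox4, Cox5, Cox6, Cox7 or Cox8, or with Atp5. Where a gene had more than 1 probeset, the one of highest mean signal over all arrays stood for it. The rule took 90 of the 14217 genes that had a probeset of their own. By their symbols, 36 were subunits of complex I, 4 of complex II, 7 of complex III, 15 of complex IV and 15 of complex V, which makes 77 subunits. The same letters also took 10 assembly factors of complexes I and II. They further took Atp5if1, an inhibitor of ATP synthase, Cox7a2l, a protein that helps to join complexes III and IV, and the pseudogene Cox6c-ps1. Probesets shared by a gene and its near-identical copy were left out, which removed Atp5mc1, Atp5mc2, Cox7a2, Uqcrb, Ndufs5 and Ndufa10. The bright probeset of Cox5a was shared in the same way, so that Cox5a is described by a dimmer one.

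RNA of whole right lung lobes from 22 male rats of about 350 g was hybridised to Affymetrix rat genome arrays, 1 array per rat. Rats received 25-micron polystyrene microspheres through the jugular vein, 1300000 per 100 g of body weight for Mild PE and 2000000 per 100 g for Severe PE. Vehicle rats received 0.15 ml per 100 g of the 0.01% Tween 20 in which the microspheres were suspended. The injected volume was 0.15 ml per 100 g in Severe PE too, but 0.10 ml per 100 g in Mild PE. Mild PE thus differed from the other groups in volume as well as in microspheres. Lungs were taken after 2 h or 18 h, so that each time had 3 rats given Vehicle, 4 with Mild PE and 4 with Severe PE. Every lung had been lavaged with 8 ml of saline before it was excised, which removes cells of the airspaces. Microspheres block small vessels but are not clots and do not dissolve. A whole lobe holds many cell types, and fewer cells of a type cannot be told apart from less RNA per cell. As a check of the tissue, the 8 markers of alveolar type II cells, which make surfactant, were measured well above the floor of the scale in every group, with a summed signal of 129292 to 148461 at 18 h.

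The respiratory chain passes electrons from NADH (complex I) and succinate (complex II) through coenzyme Q, complex III and cytochrome c to oxygen at complex IV, and pumps protons out of the mitochondrial matrix on the way. ATP synthase (complex V) lets the protons back and makes ATP. Several complex IV subunits exist in a common form, found in most cells, and in a form restricted to some tissues, such as striated muscle, testis or the lung. Lung is the tissue in which the alternative subunit Cox4i2 is known to be most abundant.

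At 18 h of Severe PE, most subunits stayed within 1.5-fold of Vehicle, and 4 genes passed the test as lower. The genes that fell were Ndufa4l2, Cox8b, Cox6b2 and Cox4i2, by 4.71-fold, 3.38-fold, 3.46-fold and 1.84-fold. A gene was called changed when it differed at least 1.5-fold with an adjusted p under 0.05 (limma, Benjamini-Hochberg over all 31042 probesets analysed). By this rule 4 of the 90 genes fell and 0 rose in 18-h Severe PE, against 9.9% of all 14217 genes called in either direction, 5.61% lower and 4.29% higher. The share of members called, 4 of 90, was thus below the background, and the share called lower was near the 5.61% of all genes. The 4 are described below as restricted forms. Of the other restricted forms, Cox7a1 and Cox6a2 did not pass and Cox7b2 was mostly at the floor. Over all 90 the median log2 difference was 0.04 and 54 of 90 were above 0, beside a median of -0.003 over all genes. Only 6 of 90 (6.67%) differed by 1.5-fold or more in size, beside 24.8% of all genes.

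**Figure D1:**
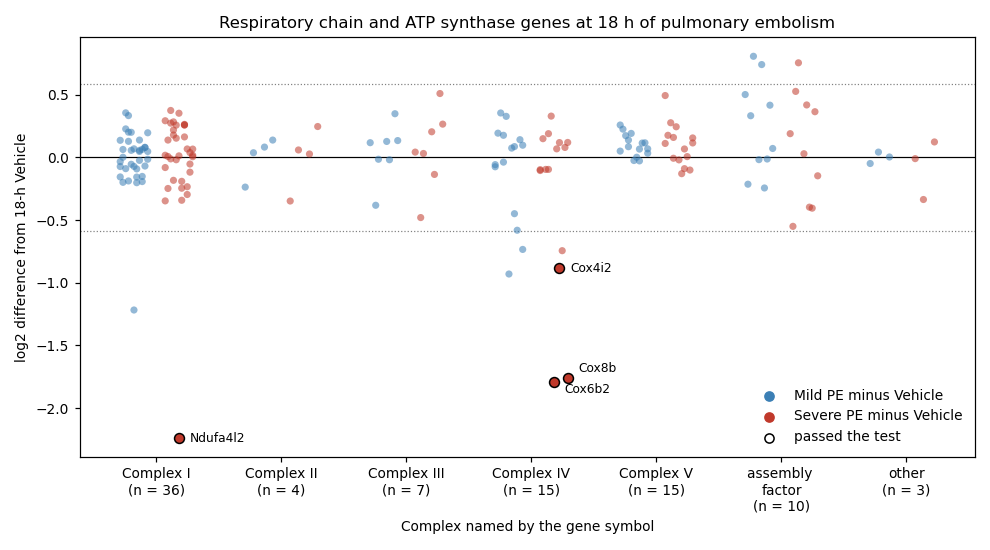
Log2 difference from the 18-h Vehicle rats (vertical axis) of each of the 90 genes, 1 point per gene, by complex (horizontal axis), for Mild PE (blue) and Severe PE (red). Dotted lines mark 1.5-fold, and a black rim marks the 4 genes that passed the test, all of them lower in Severe PE, Ndufa4l2 at -2.24, Cox6b2 at -1.79, Cox8b at -1.76 and Cox4i2 at -0.88.

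Ndufa4l2 is a close relative of Ndufa4. It was named for complex I, while the Ndufa4 protein is now placed with complex IV, and it is known as a gene induced when oxygen is low. Its log2 signal was 9.86, 9.19 and 9.84 in the 18-h Vehicle rats, 8.69, 8.74, 8.52 and 7.68 in Mild PE, and 7.34, 7.64, 7.37 and 7.22 in Severe PE. The groups lay in steps without overlap, with every Mild PE rat under every Vehicle rat and every Severe PE rat under every Mild PE rat. The Severe PE rats fell by 2.24 on the log2 scale (SE 0.20, adjusted p = 0.00701). The Mild PE difference was -1.22 (SE 0.32, adjusted p = 0.126) and did not pass, nor did the -1.02 between the doses (adjusted p = 0.163). At 2 h the 11 rats of the 3 groups spanned 9.37 to 10.18 and overlapped throughout. Ndufa4 itself, the common form, ranged from 12.04 to 12.57 over the 11 rats at 18 h, with a Severe PE difference of -0.12 (SE 0.12, adjusted p = 0.624).

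Cox4i2 takes the place of Cox4i1, a regulatory subunit of complex IV, and is the form typical of lung. The 18-h Vehicle rats read 9.68, 9.51 and 9.50 for Cox4i2, the Mild PE rats 9.32, 9.20, 8.94 and 8.99, and the Severe PE rats 8.63, 8.48, 8.83 and 8.80. Again the 18-h groups stepped down by dose with no overlap. The fall in Severe PE was by 0.88 on the log2 scale (SE 0.11, adjusted p = 0.0118), and the difference in Mild PE was -0.45 (SE 0.11, adjusted p = 0.114). At 2 h Cox4i2 spanned 8.80 to 9.89, and its lowest values there, 9.03 in a Vehicle rat and 8.80 in a Severe PE rat, were those of arrays with a weak signal at the 5′ end of transcripts (below). Cox4i1 read 14.08 to 14.32 over all 11 rats at 18 h, and its Severe PE difference was -0.11 (SE 0.06, adjusted p = 0.319).

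Cox8b is the heart and skeletal muscle form of subunit VIII, of which Cox8a is the common form. Cox8b read 10.28, 9.66 and 10.46 in 18-h Vehicle rats, 9.51, 9.40, 9.31 and 9.38 in Mild PE and 8.41, 8.12, 8.29 and 8.68 in Severe PE. It too stepped down by dose with no overlap between groups. Severe PE fell by 1.76 (SE 0.23, adjusted p = 0.0145), and the Mild PE difference was -0.73 (SE 0.19, adjusted p = 0.126). Between the doses the difference was -1.02 (SE 0.12), with the smallest p of all members in that comparison before adjustment (7.55e-05) and an adjusted p of 0.0944. Cox8a had 18-h means of 13.16 in Vehicle and 13.06 in Severe PE, a difference of -0.10 (SE 0.06, adjusted p = 0.399).

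Cox6b2 is the testis form of subunit VIb, and Cox6b1 the common one. The probeset of Cox6b2 is the dimmest of the 4, at 8.54, 7.96 and 8.37 in 18-h Vehicle rats, 7.47, 7.34, 7.31 and 7.31 in Mild PE and 6.73, 6.54, 5.88 and 6.83 in Severe PE. The order by dose was the same and the groups did not overlap. Severe PE fell by 1.79 (SE 0.27, adjusted p = 0.0196), and the Mild PE difference of -0.93 (SE 0.14, adjusted p = 0.0518) just missed the threshold. The call for Cox6b2 was lost without 18-h Vehicle replicate 1, without 18-h Vehicle replicate 3 or without 18-h Severe PE replicate 2 (differences -1.95 to -1.59 and adjusted p up to 0.0624 over the 7 rats left out in turn). The calls for Ndufa4l2, Cox4i2 and Cox8b held without any single rat of the comparison. Cox6b1 ranged from 12.90 to 13.21 at 18 h, where its lowest Mild PE rat (13.04) lay above its highest Vehicle rat (13.025).

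**Figure D2:**
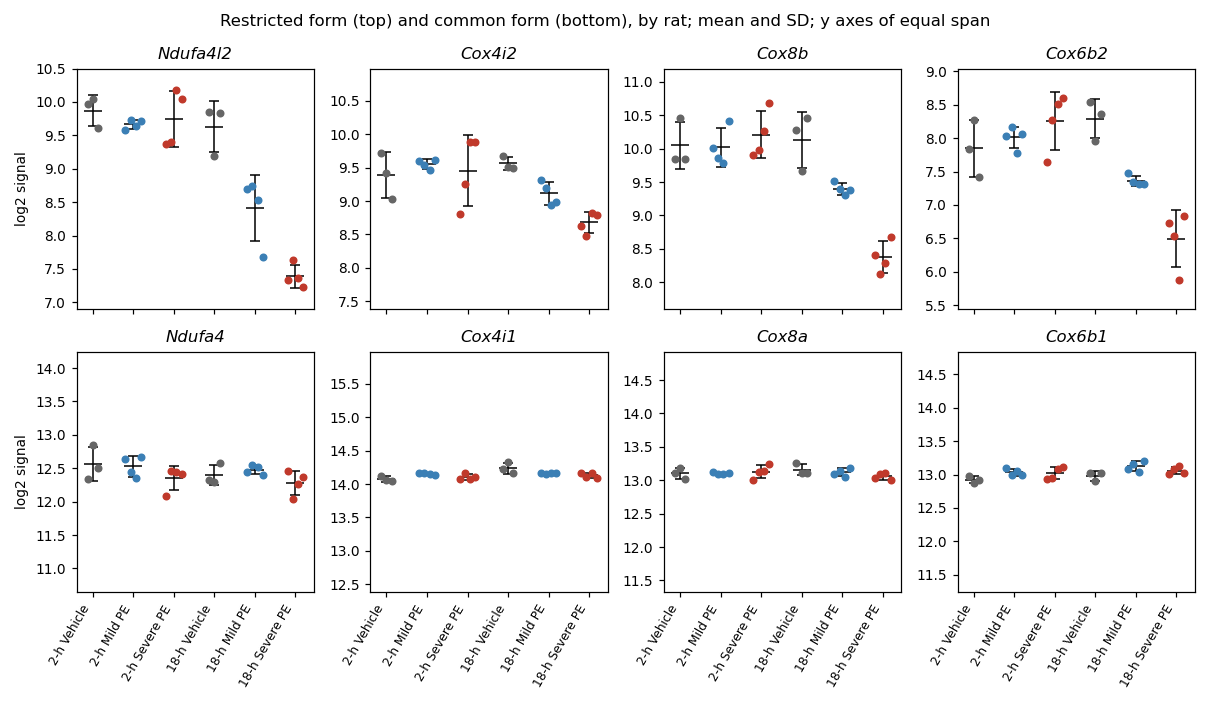
Log2 signal by rat (points, coloured by treatment) with group mean and SD (bars) for the restricted genes Ndufa4l2, Cox4i2, Cox8b and Cox6b2 (top) and their common counterparts Ndufa4, Cox4i1, Cox8a and Cox6b1 (bottom), over the 6 groups. All y axes have the same span, so slopes can be compared but levels cannot. The top row steps down at 18 h from Vehicle to Mild PE to Severe PE. In the bottom row the 18-h groups overlap or meet, except that Cox6b1 was higher in Mild PE than in Vehicle without overlap. The 18-h means of Cox4i1 and Cox8a go down in the same order by 0.11 and 0.10 in all. At 2 h Cox4i1 and Cox6b1 were higher in Mild PE than in Vehicle, also without overlap. They were 2 of 8 such members among the 90, beside 8.34% of all genes.

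These 4 genes had lower Severe PE than Mild PE values at 18 h in every rat. They were named for passing Severe PE against Vehicle, a choice that favours low Severe PE values. Over all members, 8 of 90 were lower without overlap between the doses and 1 was higher, beside 5.75% and 4.9% of all genes. In 18-h Mild PE against Vehicle 9 of 90 were lower without overlap and 10 were higher, beside 12.1% and 10.2% of all genes. No member or other gene passed the test between the doses at 18 h (0 of 90 and 0% of all genes), with 14 members at an unadjusted p under 0.05 beside 17.3% of all genes. The time at which the genes fell was tested as the difference between the Severe PE effects at 18 h and at 2 h. It was -2.11 for Ndufa4l2 (SE 0.35, adjusted p = 0.00208), -2.20 for Cox6b2 (SE 0.35, adjusted p = 0.0015) and -1.91 for Cox8b (SE 0.31, adjusted p = 0.00184). For Cox4i2 it was -0.95 (SE 0.30, adjusted p = 0.069) and did not pass. These were 3 of 90 members, beside 8.22% of all genes, and the count rose to 8 without 2-h Severe PE replicate 1. For Mild PE, 0 of 90 passed, beside 1.13% of all genes.

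Other restricted or alternative forms gave a mixed picture. Cox7a1, the heart and muscle form of subunit VIIa, read 9.46, 10.05 and 9.54 in 18-h Vehicle rats and 9.17, 9.24, 8.86 and 8.48 in Severe PE. The groups did not overlap, but the difference of -0.74 (SE 0.24, adjusted p = 0.12) did not pass. In Mild PE the 4 rats lay between 9.02 and 9.26, also under every Vehicle rat, at a difference of -0.58 (SE 0.16, adjusted p = 0.133). Cox6a2, the heart and muscle form of subunit VIa, read 10.27, 9.35 and 10.89 in 18-h Vehicle rats and 9.95 to 10.33 in Severe PE, and the groups overlapped (-0.10, SE 0.36). Its common form Cox6a1 differed by 0.07 (SE 0.15). Cox7b2, a testis form, was at the floor of the scale in 14 of 22 rats.

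Reference promoters were set side by side for the restricted genes that fell and a common form. RefSeq's windows of 250 bases before to 50 after the start, build GRCr8, were at hand for 82 of the 90 members, and Cox4i2 was among the others. Each was searched on both strands for the NRF1 motif (GCGCA, then any 1 base, then GCGC) and the ETS motif bound by GABP (CCGGAAG), both known from respiratory chain promoters. It was also searched for the hypoxia response core ACGTG, the TATA motif TATAAA, and the muscle motifs CArG box and MEF2. Capitals mark every match, on either strand. The windows are Ndufa4l2 at chr7:65241919-65242218 (plus strand), Cox8b at chr1:205408224-205408523 (minus strand), Cox6b2 at chr1:78122621-78122920 (plus strand) and, for contrast, Cox4i1 at chr19:65630133-65630432 (plus strand), each written 5′ to 3′ along the gene.
Ndufa4l2: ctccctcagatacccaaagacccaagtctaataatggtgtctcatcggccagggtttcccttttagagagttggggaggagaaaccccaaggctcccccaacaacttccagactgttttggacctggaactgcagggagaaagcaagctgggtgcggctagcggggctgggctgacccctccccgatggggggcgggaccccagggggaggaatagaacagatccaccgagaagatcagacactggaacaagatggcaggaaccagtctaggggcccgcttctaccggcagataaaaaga
Cox8b: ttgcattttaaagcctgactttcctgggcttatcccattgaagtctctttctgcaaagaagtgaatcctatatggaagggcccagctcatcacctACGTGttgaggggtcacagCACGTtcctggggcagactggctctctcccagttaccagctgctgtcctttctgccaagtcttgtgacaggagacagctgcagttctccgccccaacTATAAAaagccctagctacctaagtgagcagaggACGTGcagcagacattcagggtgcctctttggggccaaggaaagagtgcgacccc
Cox6b2: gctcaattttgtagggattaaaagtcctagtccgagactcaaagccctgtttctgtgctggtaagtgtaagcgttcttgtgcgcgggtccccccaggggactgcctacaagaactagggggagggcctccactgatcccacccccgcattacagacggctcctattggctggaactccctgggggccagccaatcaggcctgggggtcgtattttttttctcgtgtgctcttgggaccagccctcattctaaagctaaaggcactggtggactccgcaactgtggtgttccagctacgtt
Cox4i1: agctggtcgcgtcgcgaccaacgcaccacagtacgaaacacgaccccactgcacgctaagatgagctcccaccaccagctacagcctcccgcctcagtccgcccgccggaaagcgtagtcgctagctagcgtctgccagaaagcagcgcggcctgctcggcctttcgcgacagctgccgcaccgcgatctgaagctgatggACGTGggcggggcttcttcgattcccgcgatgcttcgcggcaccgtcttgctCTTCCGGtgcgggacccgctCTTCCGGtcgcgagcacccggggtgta
The NRF1 motif was present in 17 of the 82 member windows (20.7%), beside 4.71% of all 27457 promoters and 8.5% of those of genes on the array. The ETS motif was present in 25 (30.5%), beside 9.22% and 15% respectively. Neither motif was found in the windows of Ndufa4l2, Cox8b and Cox6b2, and Cox4i1 held the ETS motif at 2 places just after its start. Of the common counterparts of these genes, Ndufa4 and Cox6b1 held neither motif as well, and Cox8a held the ETS motif at 2 places. So few windows cannot show whether these motifs set the restricted and common forms apart. Cox8b held ACGTG or its reverse complement at 3 places and the TATA motif at 39 bases before its start. The common forms Cox4i1 and Cox8a each held ACGTG or its reverse complement at 1 place. The ACGTG core was present in 21 member windows (25.6%), beside 19.7% of all promoters and 24.1% of those of genes on the array. The TATA motif was present in 8 (9.76%), beside 14.3% and 8.46%, so that the members lay below all promoters and above those of genes on the array. The CArG box was present in 2 and MEF2 in 1 of the 82, beside 1.64% and 3.37% of all promoters. The window of Ndufa4l2 held none of the 6 motifs, nor did those of Cox6b2, Ndufa4 and Cox6b1. Matches of letters describe these windows and do not show binding.

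None of the 10 core or reference subunits read in 18-h Severe PE passed the test, and their differences from Vehicle lay between -0.35 (Sdha) and 0.27 (Ndufs1). Cox4i1 and Cox5a, which stand for complex IV, are reference rather than core subunits. Ndufv1, which holds the NADH site of complex I, read 12.17, 12.18 and 12.17 in 18-h Vehicle rats and 12.22, 12.20, 12.18 and 12.17 in Severe PE. The difference was 0.02 (SE 0.04, adjusted p = 0.848) and the groups overlapped. Ndufs1, the largest iron-sulfur protein of complex I, read 8.68, 9.16 and 9.39 in Vehicle rats and 9.12 to 9.59 in Severe PE, with overlap (0.27, SE 0.20, adjusted p = 0.471). Uqcrc1, a core protein of complex III, differed by 0.03 (SE 0.09), and Uqcrfs1, its Rieske iron-sulfur protein, by 0.20 (SE 0.08, adjusted p = 0.193). Atp5f1a and Atp5f1b, the alpha and beta subunits of ATP synthase, differed by 0.11 (SE 0.07) and -0.09 (SE 0.09). Cox5a of complex IV, by its dimmer probeset, differed by 0.19 (SE 0.22, adjusted p = 0.66). Of complex II, the iron-sulfur subunit Sdhb differed by 0.03 (SE 0.06). Sdha, its flavoprotein, had the lowest difference of these 10 subunits at -0.35 (SE 0.13, adjusted p = 0.159). Its 4 Severe PE rats lay at 11.32 to 11.47, while the Vehicle rats read 11.42, 11.86 and 11.88, so that 1 Vehicle rat lay among the treated ones. The errors allow small changes, and missing the threshold does not show that levels were equal.

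In 18-h Severe PE 32 of 90 members had an unadjusted p under 0.05, beside 33.4% of all genes. Within complex I, 11 of 36 genes had an unadjusted p under 0.05. Their differences ran both ways, with a median of 0.02, 22 of 36 above 0, and 1 of 36 at 1.5-fold or more in size (Ndufa4l2). Ndufa9, which lies near the quinone site, read 11.56, 11.56 and 11.68 in Vehicle rats and 11.79 to 11.91 in Severe PE, above every Vehicle rat. It had an adjusted p under 0.05 (0.0491) at a difference of 0.26 (SE 0.06), a size under the 1.5-fold rule. Ndufb10 and Ndufs7 lay the other way without overlap, at -0.34 (adjusted p = 0.0514) and -0.30 (adjusted p = 0.0581).

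Among the members, complex III held the largest rise of any subunit with an adjusted p under 0.05. Uqcrq, a small subunit of complex III, read 11.59, 11.41 and 11.36 in 18-h Vehicle rats, 11.80, 11.68, 11.72 and 12.01 in Mild PE and 12.05, 11.86, 11.98 and 11.96 in Severe PE. Both treated groups lay above Vehicle without overlap, at 0.51 in Severe PE (SE 0.08, adjusted p = 0.0198) and 0.35 in Mild PE (SE 0.10, adjusted p = 0.152). Uqcrh, the hinge protein of the same complex, lay lower, at 11.28 to 11.68 in Severe PE beside 11.81 to 11.98 in Vehicle (-0.48, SE 0.11, adjusted p = 0.0566). In complex V, Atp5mc3, one of the genes for the rotating c ring, read 13.31, 13.30 and 13.41 in Vehicle and 13.57 to 13.66 in Severe PE. That was a difference of 0.28 (SE 0.05, adjusted p = 0.0306). No gene of complexes II, III and V reached 1.5-fold at 18 h of either dose.

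Counting without regard to size, 8 of 90 members had an adjusted p under 0.05 in 18-h Severe PE, beside 13.5% of all genes. They were the 4 that fell, and Uqcrq, Atp5mc3, Ndufa9 and the complex I assembly factor Ndufaf8 (0.53, SE 0.10, adjusted p = 0.0313), each of them higher. Without overlap, 15 members were lower and 14 higher than Vehicle, beside 16.7% and 14.5% of all genes. At 18 h of Mild PE 0 of 90 passed the test, beside 1.43% of all genes, and 17 had an unadjusted p under 0.05, beside 24.6%. The largest Mild PE differences in size were those of Ndufa4l2, Cox6b2, Ndufaf4 and Ndufaf7. Ndufaf4 and Ndufaf7, both assembly factors of complex I, were higher, at 0.81 (SE 0.20, adjusted p = 0.111) and 0.74 (SE 0.19, adjusted p = 0.117). Mild PE and Severe PE were set against the same 3 Vehicle rats, so that their differences are not independent.

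At 2 h no member passed any test. The counts were 0 of 90 for Mild PE against Vehicle, beside 0.429% of all genes, and 0 of 90 for Severe PE against Vehicle, beside 0.0422%. Severe PE against Mild PE gave 0 of 90, beside 0.549%. At an unadjusted p under 0.05 the members numbered 9, 0 and 7, beside 15.5%, 8.45% and 13.8% of all genes. Differences from Vehicle ran from -0.42 to 0.46 in Mild PE and from -0.55 to 0.41 in Severe PE, with none of 90 reaching 1.5-fold. The methods' t-test on the same values also passed 0 members in each comparison but 18-h Severe PE against Vehicle, where it passed the same 4 genes. Vehicle rats at 18 h against 2 h gave 0 of 90, beside 0% of all genes, and 10 at an unadjusted p under 0.05, beside 20.3%.

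A model of the 6 groups tested time, dose and their interaction, and passed a gene when the highest and lowest of its 6 group means also differed at least 1.5-fold. Time passed for 10 of 90 members, beside 22.6% of all genes. These were Ndufa4l2, Cox8b, Cox6b2, Cox4i2, Cox7a1, Uqcrc2, Ndufb8, Ndufaf7, Cox7a2l and Cox6c-ps1. Ndufb8, an accessory subunit of complex I, had means of 8.65, 8.65 and 8.71 at 2 h and of 9.15, 9.20 and 9.41 at 18 h (Vehicle, Mild PE and Severe PE, adjusted p of the time term 3.921e-04). The Mild PE rats overlapped between the times, at up to 8.90 and down to 8.73. Uqcrc2, the other core protein of complex III, had means of 11.40, 11.14 and 11.04 at 2 h and 10.75, 10.88 and 11.01 at 18 h (adjusted p of the time term 0.0313), so that Severe PE hardly differed between the times. Its high values at 2 h, 11.65 in a Vehicle rat and 11.69 in a Severe PE rat, were from the arrays of weak 5′ signal, and it did not pass without those arrays. Dose passed for 5 of 90, beside 13.7%, namely Ndufa4l2, Cox8b, Cox6b2, Ndufaf7 and Sdhaf1. Without those 4 arrays it passed for 3, of which Ndufa4l2 and Cox8b were shared and Cox7a2l was added, and Cox6b2, Ndufaf7 and Sdhaf1 lost the call. Sdhaf1, an assembly factor of complex II, had means of 11.40 and 11.61 in Vehicle and of 11.73 to 12.02 in the 4 treated groups (adjusted p = 0.0137 with all arrays). The interaction passed for 3 of 90, beside 5.35%, which were Ndufa4l2, Cox8b and Cox6b2, and for 7 without 2-h Severe PE replicate 1.

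Over the 6 groups, few of the bright members had means that lay far apart. Of all 90, 15 (16.7%) had group means that spanned 1.5-fold or more, beside 55.5% of all genes. Of the 70 members with a mean log2 signal above 10, 3 did so (4.29%), beside 43.1% of the 3755 genes of that brightness. Of the 20 dimmer members 12 did so (60%), beside 60% of the dimmer genes. The 3 bright ones were Uqcrc2, Sdhaf1 and Cox7a2l. Among the 12 dimmer ones were Ndufa4l2, Cox8b, Cox6b2 and Cox4i2, whose common counterparts all had a mean above 10. By complex the count was 3 of 36 in complex I, 0 of 4 in complex II, 1 of 7 in complex III, 5 of 15 in complex IV and 0 of 15 in complex V, and 4 of 10 among the assembly factors. The median SD between rats of a group was 0.14 for the bright members and 0.18 for all bright genes. Brightness was not set equal within these classes, and its part in the difference was not tested.

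**Figure D3:**
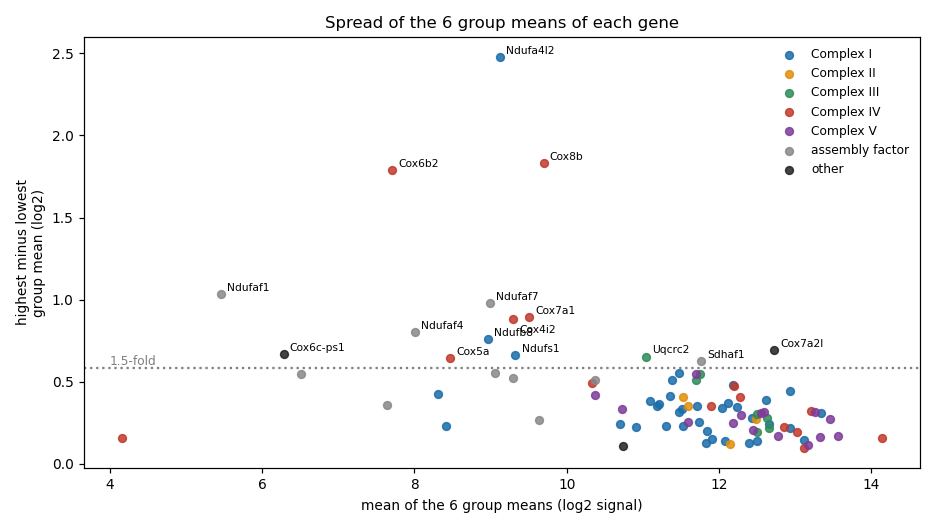
Highest minus lowest of the 6 group means (vertical axis, log2) against the mean of the 6 group means (horizontal axis, log2 signal) for the 90 genes, coloured by complex. The dotted line marks 1.5-fold; the 15 named genes lie above it, 3 of them at a mean above 10, and Ndufa4l2, Cox8b and Cox6b2 stand apart with spans of 2.48, 1.83 and 1.79.

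Genes that work beside the chain were read from lists of known function. Of 23 measured genes for adenine nucleotide and phosphate transport, protein import and mitochondrial chaperones, 5 rose in 18-h Severe PE and 0 fell, beside 9.9% of all genes called in either direction, with a median of 0.25. Hspd1, the mitochondrial chaperonin, rose by 1.34 (SE 0.18, adjusted p = 0.0148), and its partner Hspe1 by 0.73 (SE 0.12, adjusted p = 0.0246). Hspa9, the chaperone that pulls proteins through the inner membrane, rose by 1.06 (SE 0.20, adjusted p = 0.0318). Tomm70 and Tomm40, a receptor and the pore of the outer membrane, rose by 1.41 (SE 0.25, adjusted p = 0.0285) and 1.07 (SE 0.11, adjusted p = 0.00967). In each of these 5 genes every Severe PE rat lay above every Vehicle rat, as in 14.5% of all genes. The 5 were named because they passed this test, so the lack of overlap adds nothing to it.

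**Figure D4:**
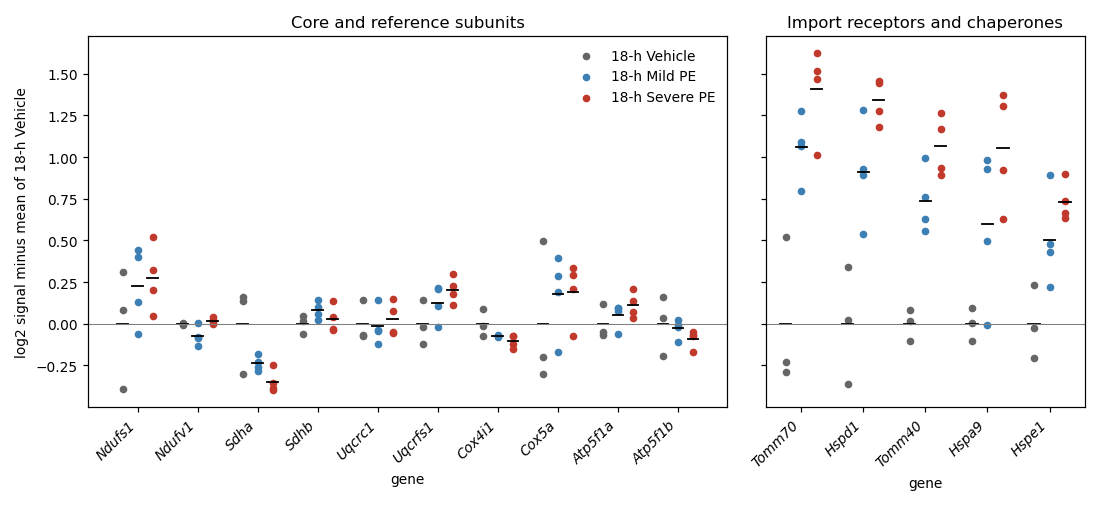
Log2 signal of each rat minus the mean of the 18-h Vehicle rats (vertical axis). The left panel holds the 10 core or reference subunits, and the right panel the 5 import and chaperone genes that rose. Colours mark Vehicle (grey), Mild PE (blue) and Severe PE (red), and short bars are group means. The subunits' Severe PE means lie between -0.35 (Sdha) and 0.27 (Ndufs1), and those of the 5 import and chaperone genes between 0.73 (Hspe1) and 1.41 (Tomm70). These 5 are shown because they passed the test, so the panels do not compare the gene sets. All 23 genes of their list had a median of 0.25, with 17 above 0.

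Over all genes 9.9% were called in 18-h Severe PE, 4.29% higher and 5.61% lower, which stands beside each count of the next 4 lists. Of 15 electron carriers and coenzyme Q genes, 2 rose and 1 fell. Coq8a, a kinase-like protein needed to make coenzyme Q, fell by 1.38 (SE 0.26, adjusted p = 0.032), and Coq10b, which binds coenzyme Q, rose by 0.87 (SE 0.12, adjusted p = 0.016). Etfa, which hands electrons from fatty acid oxidation to coenzyme Q, rose by 0.72 (SE 0.09, adjusted p = 0.0123). Of 31 assembly factors outside the symbol rule 2 rose, Bcs1l, which inserts the Rieske protein into complex III, by 0.71 (SE 0.11, adjusted p = 0.0197) and Higd1a, a hypoxia-induced factor of complex IV, by 0.77 (SE 0.05, adjusted p = 0.00413). Of 18 genes of the TCA cycle and pyruvate oxidation, the carboxylase Pc rose by 0.63 (SE 0.09, adjusted p = 0.0179) and the kinase Pdk2, which restrains pyruvate dehydrogenase, fell by 0.82 (SE 0.16, adjusted p = 0.0345). Of 18 regulators of mitochondrial gene expression only the coactivator Pprc1 passed, rising by 0.86 (SE 0.19, adjusted p = 0.0463). The best known of them, Ppargc1a, had a difference of -0.96 (SE 0.29, adjusted p = 0.103), and Nrf1 of -0.26 (SE 0.10, adjusted p = 0.186). At 18 h of Mild PE, 1 regulator rose and no gene of the other 4 lists passed, the background there being 1.43%.

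Because Cox8b, Cox7a1 and Cox6a2 are known from striated muscle, and because Cox4i2 and Ndufa4l2 are found in vascular mural cells, marker genes of other cell types were read beside them. Beside each count of markers in 18-h Severe PE stands the share of all genes called there, 9.9%, with 5.61% lower and 4.29% higher. Of 19 cardiomyocyte markers 0 passed in 18-h Severe PE, and 0 of 19 were above 0, with a median difference of -0.56. Their summed signal ran from 9984 to 22921 in 18-h Vehicle rats, 13366 to 16384 in Mild PE and 7604 to 10201 in Severe PE, with 1 Vehicle rat among the Severe PE rats, and at 2 h from 13628 to 22944 over all groups. No cardiomyocyte marker was at the floor in all rats of a group. In 18-h Mild PE 15 of 19 were above 0, with a median of 0.20, and Nppb, a natriuretic peptide of the heart, rose by 0.98 (SE 0.11, adjusted p = 0.0333), while Cox8b was at -0.73. Myh6, the cardiac myosin heavy chain, differed by -1.07 (SE 0.32, adjusted p = 0.102). Of 11 skeletal muscle markers 0 passed, 8 were above 0, and their sums overlapped between 18-h Vehicle (5194 to 9780) and Severe PE (7586 to 10824). Of 11 smooth muscle and pericyte markers 5 were above 0, with a median of -0.22, and 2 fell, the pericyte genes Cspg4, by 0.97 (SE 0.17, adjusted p = 0.0266), and Rgs5, by 0.96 (SE 0.19, adjusted p = 0.0355). The summed signal of that list overlapped, at 19628 to 27097 in Vehicle and 19783 to 32321 in Severe PE.

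Of 8 endothelial markers 4 fell in 18-h Severe PE (Tie1, Vwf, Eng and Emcn), beside 5.61% of all genes, and 0 of 8 were above 0. Their 18-h sums were 52939 to 55983 in Vehicle, 38371 to 47883 in Mild PE and 32563 to 37960 in Severe PE. There was no overlap between any of the 3. Of 9 brown adipocyte markers Plin1 fell, by 1.61 (SE 0.35, adjusted p = 0.0459), the sums overlapped (1725 to 3601 and 1431 to 2479), and Ucp1 differed by -3.25 (SE 0.93, adjusted p = 0.0913). In 18-h Severe PE all 19 cardiomyocyte and all 8 endothelial markers lay in the direction of the 4 genes that fell. So did all 5 alveolar type I, all 7 lymphocyte and all 3 erythroid markers. Cspg4 and Rgs5 did so too, but not the whole list that holds them. The alveolar type I, lymphocyte, and club and ciliated sums were also under those of 18-h Vehicle without overlap, while the erythroid sums overlapped. The direction was thus not particular to heart, endothelium and pericytes. In 18-h Mild PE the cardiomyocyte markers mostly lay the other way. The part of these cell types in the fall was not tested. The remaining lists also stand beside 4.29% of all genes called higher and 5.61% called lower. Among them, 1 of 8 alveolar type II markers rose (Lamp3), 0 of 5 alveolar type I markers passed, and 2 of 6 club and ciliated markers fell (Cyp2f4 and Tppp3). Of the blood cell lists, 1 of 7 macrophage markers rose (Cd163), 2 of 7 lymphocyte markers fell (Cd3g and Cd79b), and 0 of 9 neutrophil and 0 of 3 erythroid markers passed.

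**Figure D5:**
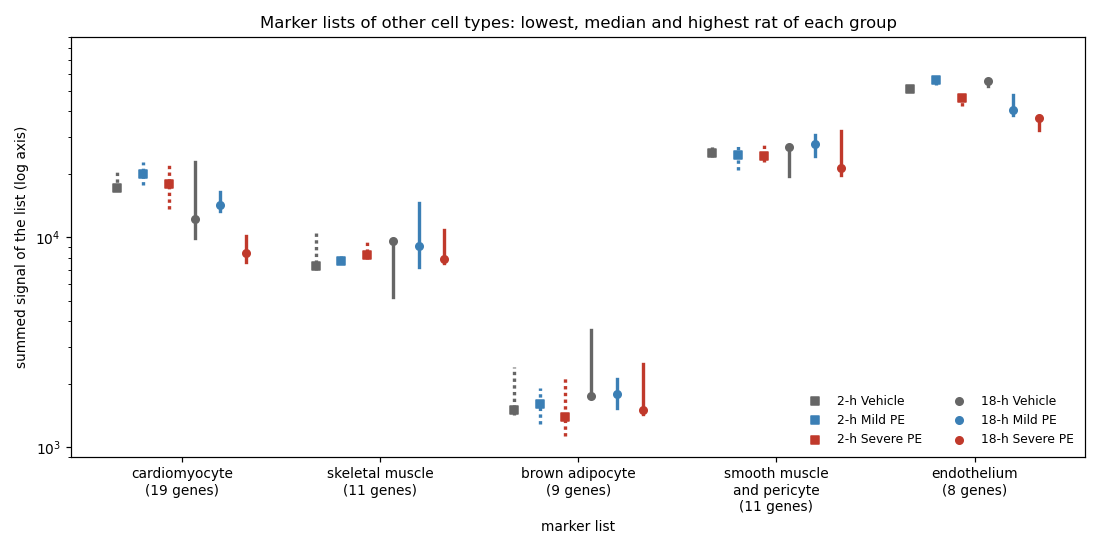
Summed signal of the marker genes of 5 other cell types (vertical log axis) in the 6 groups, as the lowest, median and highest rat of each group (line ends and symbol; squares and dotted lines 2 h, circles and full lines 18 h). At 18 h the endothelial sums step down from Vehicle to Mild PE to Severe PE, the cardiomyocyte sum is lowest in Severe PE (7604 to 10201), and the other 3 lists overlap between groups.

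On all 22 arrays the deposited signals had the same scale, with a trimmed mean of 500.1 to 500.2 and 13.6% to 17.3% of probesets under the floor of 16. The control probesets along the Gapdh transcript differed by 0.35 to 0.64 on the log2 scale between the 3′ and 5′ ends on 4 arrays and by 0.18 to 0.32 on the others. The 4 arrays were 2-h Vehicle replicate 3, 2-h Severe PE replicate 1, 18-h Vehicle replicate 1 and 18-h Mild PE replicate 4. Without them 4 members passed in 18-h Severe PE, namely Ndufa4l2, Cox8b and Cox4i2, lower, and Ndufaf8, higher, and Cox6b2 did not. Of the 11 dimmer probesets of members 0 passed, and of the 7 probesets shared with a copy 0 passed. The shared probeset of Atp5mc1 had an adjusted p under 0.05 (0.0232) in 18-h Severe PE. Its rise of 0.51, like that of Uqcrq, was under the 1.5-fold rule.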

How the data were processed

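Male Sprague-Dawley rats served as replicates, 1 array each. The deposited values are signal intensities on a linear scale, 1 per probeset and rat, which the authors had scaled so that each array had the same trimmed mean. The methods name GC-RMA, whose log2 values these are not, and the program behind the deposited intensities is not given in the sources used here. Groups came from the sample labels. Intensities under 16 were set to 16, taken to log2 and quantile normalized in R 4.3.3, and each pair of groups was fitted with limma 3.58.1 (lmFit and eBayes, with Benjamini-Hochberg adjustment over 31042 probesets). A 2-way model (time, dose and interaction) and the difference of effects between times were fitted on all 22 arrays. Genes were named from the platform annotation. Of the probesets 20826 had 1 symbol, 436 several and 9780 none. The genes described are those called in a pairwise comparison, those with the most different group means, the core or reference subunits and the pairs of forms. Others are named as the extremes of a complex or list and were chosen after their values were seen. Members, the 5 lists, the 12 marker lists, the promoter motifs and the 4 arrays of weak 5′ signal were chosen with earlier results of these data known. The fits were tested on simulated data. Alternatives were median centring, no further normalization, a floor of 64, a variance trend, the methods' t-test, dim probesets left out, gene means, 1 fit for all pairs, the arrays of weak 5′ signal left out, each array left out in turn, and replicate number as a block. The number of arrays limits the precision.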

Additional observations from a re-analysis of the deposited data

Results flagged for a closer look

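Of 120 groups of 4 rats tested over 30 named genes, 8 (6.67%) held a rat set apart from the other 3 by Dixon's criterion, where chance alone flags about 1 in 20 groups. Values are log2 signals. The array 2-h Severe PE replicate 1, 1 of the 4 with a weak 5′ signal, gave both Ndufs1 at 10.06 (others 8.76 to 8.98) and Ndufa4 at 12.09 (others 12.42 to 12.47). In 18-h Mild PE replicate 3, Ndufaf7 read 9.05 (others 9.66 to 9.71) and Atp5f1a 12.71 (others 12.84 to 12.86). The others were Ndufaf7 at 9.30 in 2-h Severe PE replicate 2 (others 8.69 to 8.76), Cox6a2 at 10.95 in 2-h Mild PE replicate 3 (others 10.40 to 10.47), Atp5mf at 12.32 in 18-h Severe PE replicate 3 (others 12.17 to 12.18) and Sdhaf1 at 11.88 in 18-h Severe PE replicate 4 (others 12 to 12.01).

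The effect of Severe PE differed between 18 h and 2 h by the test of the difference itself for 3 genes, by -2.11 for Ndufa4l2, -2.20 for Cox6b2 and -1.91 for Cox8b on the log2 scale.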

How the results depend on the processing

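In 18-h Severe PE against Vehicle, Ndufa4l2, Cox8b, Cox4i2 and Cox6b2 passed together under median centring, no further normalization, a floor of 64, a variance trend, the methods' t-test and gene means. With dim probesets left out, or 1 fit on all 22 arrays, 6 passed, Cox7a1 (lower) and Ndufaf4 (higher) being added. Leaving out 1 rat gave 3 to 4. Replicate numbers did not pair the rats (23 pairs, correlations from -0.27 to 0.12, 1 above 0.1). With the replicate number as a block 0 passed (adjusted p of the 4 genes 0.114 to 0.124), and 0 of all genes, beside 1408 without the block. The other counts of members did not change by over 1.5 times with it, while over all genes those of 18-h Mild PE and of the 3 comparisons at 2 h went from 204, 61, 6 and 78 to 0, 0, 0 and 1, and that of the Mild PE effect between times from 160 to 69. In 18-h Mild PE against Vehicle the count of 0 became 1 with no further normalization, 4 with 1 fit on all arrays, 4 with dim probesets left out (Cox6b2 and Ndufa4l2 lower, Ndufaf4 and Ndufaf7 higher), and 0 to 2 without 1 rat (2 without 18-h Vehicle replicate 2). Between the doses at 18 h it became 2 with 1 fit on all arrays, 1 with dim probesets left out, 1 without the arrays of weak 5′ signal, and 0 to 1 without 1 rat (1 without 18-h Mild PE replicate 4).

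Time passed for 26 members under median centring, which left the median of all genes 0.19 higher in 18-h than in 2-h Vehicle rats (0.06 in the main setting), and 7 of the 10 were shared. Leaving out 1 rat gave 7 to 11. Dose passed for 3 without the arrays of weak 5′ signal and for 3 to 6 without 1 rat. The interaction ranged from 3 to 7. The Mild PE effect differed between times for 1 member (Uqcrq) without the arrays of weak 5′ signal, and the Severe PE effect for 7, for 5 with dim probesets left out and for 3 to 8 without 1 rat. The cause of these changes was not tested. No result reversed. The dim filter left 4 or 5 members untested, Cox7b2 near the floor among them.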
